A study of Mus musculus with 8 samples.

Results

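Nrg3 and Erbb4, the genes of a neuronal ligand and of its receptor, were examined as targets of the RNA-binding protein Ptbp2 in the embryonic mouse cortex. Tags, the short sequenced fragments of crosslinked RNA, were taken where their midpoint lay on the minus strand in chr14:39180000-40290000 (Nrg3) or in chr1:68075000-69157000 (Erbb4), in mm9 coordinates. Of 3098854 mapped tags, 8285 lay in Nrg3 and 3431 in Erbb4, 11716 in all. Both loci were selected on measured values, because their tags and clusters in these same libraries were known when they were proposed. Tag number, tag density and cluster number over the pooled libraries are therefore given as descriptions, with no test. Both genes read from high to low coordinate, so the 5′ end of each interval is its high end.

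The libraries were made by HITS-CLIP, in which ultraviolet light fixes a protein to the RNA it touches, an antibody recovers the complex and the attached RNA is sequenced. Brain 2 and brain 1 each gave 4 libraries. Both were wild-type cortex of CD1 mouse embryos, an outbred strain, at embryonic day 18.5, and all 8 libraries hold RNA crosslinked to Ptbp2. The brains differ in no stated genotype or treatment. Libraries held 228424 to 545387 tags of 27 to 30 nt, and brain 2 was the shallower with 1165859 tags, against 1932995 in brain 1. The 4 libraries of a brain share 1 animal, so the p-values measure the spread between libraries and do not describe how brains vary. What sets the libraries of a brain apart is not given. No input RNA and no other antibody was analysed here, so binding and transcript abundance cannot be told apart, nor can fewer cells of a type and less RNA per cell. Cell type markers were not checked and exons and introns were not assigned, since no mm9 gene annotation was used here.

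Nrg3 encodes neuregulin 3, a secreted or membrane-anchored ligand with an EGF-like domain. Erbb4 encodes a receptor tyrosine kinase that neuregulins bind, and in the cortex it is best known from inhibitory interneurons, where it acts in their migration and in the synapses they receive. Ptbp2 binds pyrimidine-rich RNA, mostly in introns, and changes which exons are kept. Transcripts of Erbb4 are known to be alternatively spliced in the parts that encode the stretch next to the membrane and the cytoplasmic tail. The related genes Nrg1, Nrg2, Nrg4, Erbb2, Erbb3 and Egfr could not be placed in mm9 and are not analysed here.

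Nrg3, the ligand gene, held 0.267% of all tags, with an exact Clopper-Pearson 95% interval of 0.262 to 0.273%. Erbb4, the receptor gene, held 0.111% (95% interval 0.107 to 0.114%). These intervals and those below cover counting error only. Per length, Nrg3 held 7.46 tags per kb over 1110 kb and Erbb4 held 3.17 tags per kb over 1082 kb, a ratio of 2.35. The outermost Nrg3 tags lay at 39181492 and 40286286, a span of 1104.8 kb, beside a gene length of 1108.13 kb in RefSeq for GRCm38.p6. The outermost Erbb4 tags lay at 68078884 and 69154743, a span of 1075.86 kb, beside a RefSeq gene length of 1076.69 kb. The intervals were set to the genes, so spans close to the gene lengths follow from that choice, and the lengths come from another assembly, from which no position was carried over.

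Beyond the intervals the tags thinned out. In the 200 kb upstream of Nrg3 there were 152 tags on the same strand (0.760 per kb), and in the 200 kb downstream there were 97 (0.485 per kb). The first 100 kb inside the Nrg3 interval held 1721 tags (17.2 per kb) and the last 100 kb inside held 239 (2.39 per kb). Erbb4 had 97 tags in the 200 kb upstream (0.485 per kb) and 43 in the 200 kb downstream (0.215 per kb). Its first 100 kb held 789 tags (7.89 per kb) and its last 100 kb held 133 (1.33 per kb). Density was thus higher just inside each end than in the flank beside it, and the step was larger at the 5′ end of both genes.

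Nearly all tags in the intervals lay on the strand of the gene. Nrg3 had 8285 tags on the minus strand and 147 on the plus strand, so 98.3% were in the sense of the gene (95% interval 98.0 to 98.5%). Erbb4 had 3431 on the minus strand and 137 on the plus strand, a sense share of 96.2% (95% interval 95.5 to 96.8%). The opposite-strand tags of Nrg3 numbered 17, 15, 16 and 11 in the libraries of brain 2 and 24, 19, 23 and 22 in those of brain 1. Those of Erbb4 numbered 14, 18, 16 and 9 in brain 2 and 14, 29, 12 and 25 in brain 1. RefSeq for GRCm38.p6 lists 5 other genes inside Nrg3 (Gm3386, Nrg3os, Gm20642, Gm31606 and Gm18785), of which Nrg3os and Gm20642 are long noncoding RNAs, and 1 more, LOC432842, across an end of it. It lists 2 genes inside Erbb4, the pseudogene Gm25542 and the long noncoding Gm51744. A strand was at hand only for LOC432842, which lies on the plus strand. Tags that any of the other genes share with their host on the minus strand could not be set apart. The plus-strand tags were not assigned to any gene.

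Nrg3 was set between the brains as tags per 1e6 tags of the library (CPM), a level that the choice of the locus did not compare between brains. Nrg3 held 573, 720, 904 and 599 tags in libraries 1 to 4 of brain 2, against 1659, 1297, 1306 and 1227 tags in libraries 1 to 4 of brain 1. As levels these were 2143, 2187, 2652 and 2622 CPM in brain 2, against 3042, 2830, 2841 and 2613 CPM in brain 1. Libraries 1 and 2 of brain 2 were lowest and library 1 of brain 1 was highest, but the brains overlapped, since library 4 of brain 1 lay below libraries 3 and 4 of brain 2. The mean was 2401 ± 273 CPM in brain 2 and 2831 ± 175 CPM in brain 1 (n = 4 libraries each, SD). The log2 change, brain 2 over brain 1, was -0.24, a fold of 0.845. A two-sided exact permutation test over libraries gave p = 0.0857, and 0.200 after Benjamini-Hochberg adjustment over the 7 single-value tests made here. A split of 4 and 4 libraries allows no p under 0.0286. With trimmed mean scaling the log2 change of Nrg3 was smaller, at -0.17 (exact permutation p = 0.0571, adjusted p = 0.133). Over all 100 kb windows tested in the genome, the median log2 change was -0.06 with total tags and 0.01 with the trimmed mean.

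Erbb4 held 247, 311, 371 and 299 tags in brain 2, against 659, 585, 472 and 487 tags in brain 1. Its levels were 924, 945, 1088 and 1309 CPM in brain 2, against 1208, 1276, 1027 and 1037 CPM in brain 1. The brains were interleaved: the highest and the lowest library were both of brain 2. The mean was 1066 ± 177 CPM in brain 2 and 1137 ± 125 CPM in brain 1 (n = 4 libraries each, SD). The log2 change, brain 2 over brain 1, was -0.10, a fold of 0.933. The exact permutation test gave p = 0.457 and 0.640 after adjustment. With trimmed mean scaling the log2 change of Erbb4 was -0.03 (exact permutation adjusted p = 0.857).

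The number of Nrg3 tags for each Erbb4 tag does not depend on library depth. It was 2.32, 2.32, 2.44 and 2.00 in brain 2, against 2.52, 2.22, 2.77 and 2.52 in brain 1. Ligand tags outnumbered receptor tags in each library, and the brains overlapped because library 2 of brain 1 lay inside the range of brain 2. The mean ratio was 2.27 ± 0.186 in brain 2 and 2.51 ± 0.225 in brain 1 (n = 4 each, SD). The log2 change of the ratio was -0.14 (exact permutation p = 0.229, adjusted p = 0.400). None of the 3 comparisons passed, but the design could hardly pass: with the p-values of the other tests as they were, a single between-brain test at its smallest p would still miss 0.05 after adjustment. A difference in Nrg3 of this size is therefore neither shown nor excluded.

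The titles mark libraries 1 and 2 of each brain with the letter a and libraries 3 and 4 with b, and the brains were also set against each other within each letter, a split added after the data were seen. Among the libraries marked a, the log2 change was -0.44 for Nrg3 and -0.41 for Erbb4, and among those marked b it was -0.05 for Nrg3 and 0.21 for Erbb4. The lower estimates in brain 2 were thus mostly those of the letter a, and for Erbb4 the direction turned in b. A split of 2 and 2 libraries allows no exact p under 0.333. The part of the letter in the levels was not tested, and its meaning is not given.

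**Figure D1:**
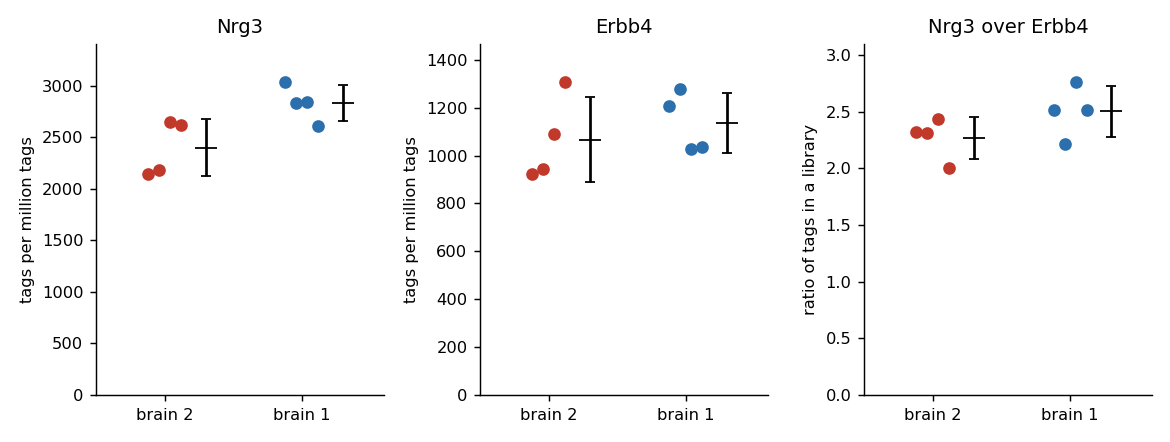
CPM of Nrg3 (left) and Erbb4 (middle), and the ratio of Nrg3 to Erbb4 tags (right), with brain 2 in red and brain 1 in blue. Each point is 1 library, and the bar beside a group is its mean ± SD (n = 4). The points of the brains overlap in each panel, most in Erbb4, where brain 2 holds both the lowest (924) and the highest (1309) library.

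Along both genes the tags were denser toward the 5′ end. In Nrg3, 6029 of 8285 tags lay 5′ of the midpoint of the interval, which is 72.8% (95% interval 71.8 to 73.7%), and the median tag lay 291 kb from the 5′ end. In Erbb4, 2552 of 3431 tags lay 5′ of the midpoint, 74.4% (95% interval 72.9 to 75.8%), and the median tag lay 227 kb from the 5′ end. The intervals of the 2 genes overlap. When each gene was cut into 3 equal parts, the part at the 5′ end held 58.9% of the Nrg3 tags and 63.3% of the Erbb4 tags. Over bins of 10 kb, tag number fell with distance from the 5′ end with a Pearson r of -0.655 and a Spearman rho of -0.714 in Nrg3 (111 bins), and with an r of -0.623 and a rho of -0.620 in Erbb4 (109 bins). These correlations are descriptions, since bins of a gene share the libraries and the transcript. No other long gene was set beside these 2, so the slope is not read as a trait of theirs.

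The share of tags 5′ of the midpoint was similar in each library. For Nrg3 it was 72.9, 73.8, 73.2 and 70.1% in brain 2, against 74.0, 72.4, 72.2 and 72.4% in brain 1. Library 4 of brain 2 was lowest, library 1 of brain 1 was highest, and the brains overlapped. The mean share was 72.5 ± 1.63% in brain 2 and 72.7 ± 0.852% in brain 1 (SD, n = 4 each), a difference of -0.237 percentage points (exact permutation p = 0.857, adjusted p = 0.857). For Erbb4 the share was 74.1, 77.5, 72.2 and 74.6% in brain 2, against 76.0, 74.7, 73.1 and 72.7% in brain 1, and the brains overlapped again. The mean was 74.6 ± 2.18% in brain 2 and 74.1 ± 1.53% in brain 1, a difference of 0.473 percentage points (exact permutation p = 0.771, adjusted p = 0.857, n = 4 each). The direction of neither difference held: that of Nrg3 turned positive when repeated rows, tags of 1 library with the same position and strand, were counted once, and both turned when single libraries were left out.

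Within this slope the tags rose and fell over short distances, and the profiles of the 2 brains were alike. The fullest 10 kb of Nrg3 lay 230 to 240 kb from the 5′ end with 327 tags, and the median bin held 53. The emptiest bin of Nrg3 held 5 tags, so no 10 kb of the ligand gene was without tags. In Erbb4 the fullest 10 kb lay 160 to 170 kb from the 5′ end with 181 tags, and the median bin held 21. Its 1 empty bin was the shortened last one at the 3′ end. Brain 2 and brain 1 tags per bin had a Pearson r of 0.965 and a Spearman rho of 0.945 in Nrg3, and an r of 0.910 and a rho of 0.854 in Erbb4. The shared slope is part of these values, so they do not measure likeness over short distances alone.

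**Figure D2:**
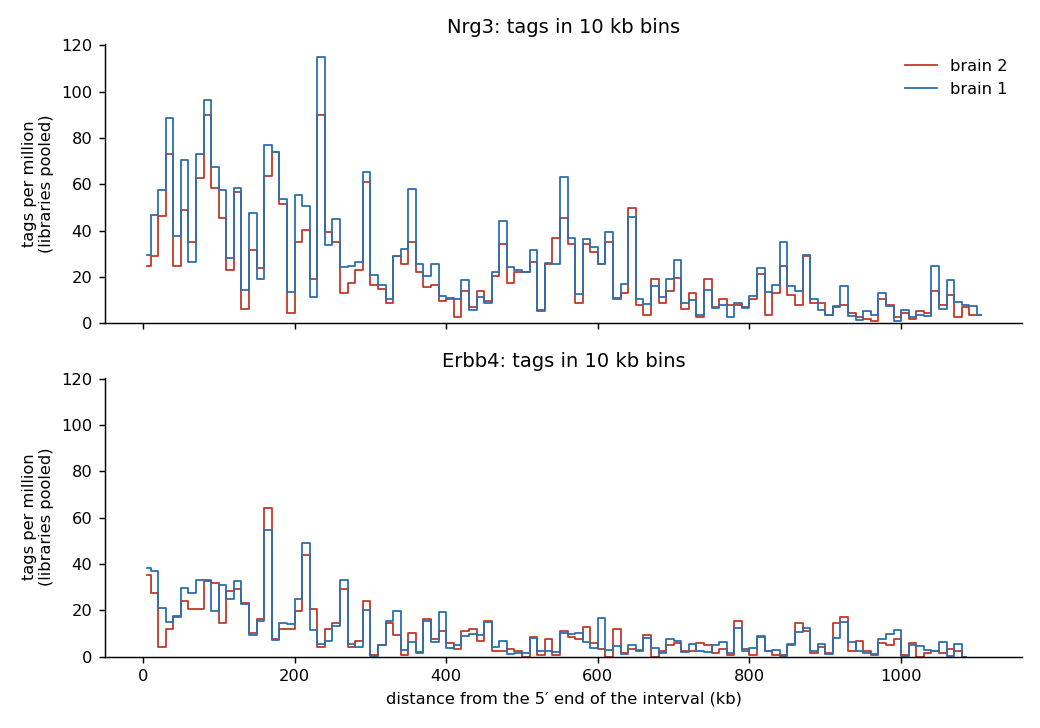
CPM in bins of 10 kb along Nrg3 (top) and Erbb4 (bottom), by distance from the 5′ end of the interval in kb, with brain 2 in red and brain 1 in blue. The lines of both brains rise and fall together, with the fullest bin at 230 to 240 kb in Nrg3 and at 160 to 170 kb in Erbb4, and both decline toward the 3′ end.

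Windows of 100 kb were tested between the brains with limma voom, fitted over all strand-specific windows of the genome with enough tags and adjusted over all 9975 of them. Of these, 63 passed an adjusted p of 0.05, which is 0.632%, and 1210 had an unadjusted p below 0.05. Each locus held 10 windows wholly inside it, all of them tested, and 0 passed in Nrg3 and 0 in Erbb4. The windows lie on a fixed grid, so they leave out the first 90 kb of Nrg3 and the first 57 kb of Erbb4. A shorter stretch at each 3′ end is left out too. The part left out at the 5′ end is dense in tags, so the window results do not cover the whole of either locus. At an unadjusted p below 0.05 there was 1 in Nrg3 and 0 in Erbb4. The estimate was lower in brain 2 in 9 of the 10 Nrg3 windows, with a median log2 change of -0.20 and a range of -0.33 to 0.04, and in 7 of the 10 Erbb4 windows, with a median of -0.04 and a range of -0.47 to 0.23. Over all windows tested 48.8% were lower in brain 2, and the median was 0.01. Windows of a gene share its transcript, so these counts are no independent evidence of a shift.

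Among the 10 windows wholly inside Nrg3, the 3 fullest lay next to each other in its 5′ part. The first 100 kb of the interval, mostly outside these windows, held 1721 tags, more than the 1467 of the fullest window. The fullest, chr14:40100001-40200000, held 109, 115, 169 and 113 tags in brain 2, against 298, 228, 226 and 209 in brain 1. Its CPM was 437 ± 71.5 in brain 2 and 495 ± 41.5 in brain 1 (mean ± SD of 4 libraries). The log2 change was -0.13 ± 0.10 (SE, limma voom adjusted p = 0.645). The next toward the 3′ end, chr14:40000001-40100000, held 76, 89, 129 and 75 tags in brain 2, against 235, 191, 181 and 166 in brain 1. It was the 1 window with an unadjusted p below 0.05, with a log2 change of -0.27 ± 0.11 (SE, limma voom adjusted p = 0.304), and its libraries overlapped between the brains. The third, chr14:39900001-40000000, held 870 tags and had a log2 change of -0.21 ± 0.13 (limma voom adjusted p = 0.525).

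The 3 emptiest windows of Nrg3 lay in its 3′ part. The emptiest, chr14:39300001-39400000, held 11, 28, 15 and 9 tags in brain 2, against 36, 32, 23 and 37 in brain 1, with a log2 change of -0.27 ± 0.25. Library 2 of brain 2 alone reached the level of brain 1 there. The windows chr14:39200001-39300000, with 231 tags, and chr14:39500001-39600000, with 335 tags, had log2 changes of -0.33 ± 0.22 and 0.04 ± 0.18. The limma voom adjusted p of these 3 windows ran between 0.563 and 0.960. The fullest window held 7.68 times the tags of the emptiest.

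In 1 Nrg3 window, chr14:39400001-39500000, named after its values were seen, the CPM of each brain 2 library lay below that of each brain 1 library. It held 36, 36, 52 and 36 tags in brain 2, against 107, 83, 78 and 75 in brain 1, or 139 ± 21.8 CPM in brain 2 and 177 ± 15.7 CPM in brain 1 as mean ± SD. Its log2 change was -0.29 (limma voom adjusted p = 0.449). Over all windows tested, 4.57% were separated in this direction, and nothing is read from 1 window in 10.

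Among the 10 windows wholly inside Erbb4, the 3 fullest also lay in its 5′ part. The first 100 kb of the interval, partly outside these windows, held 789 tags, more than the 754 of the fullest window. The fullest, chr1:69000001-69100000, held 52, 65, 76 and 70 tags in brain 2, against 157, 124, 97 and 113 in brain 1, with a log2 change of -0.10 ± 0.13 (limma voom adjusted p = 0.827). The next, chr1:68900001-69000000, held 62, 56, 74 and 59 tags in brain 2, against 119, 120, 74 and 77 in brain 1, with a log2 change of 0.19 ± 0.14 (limma voom adjusted p = 0.632). The brains overlapped in both windows. The third, chr1:68800001-68900000, held 352 tags, with a log2 change of -0.07 ± 0.18. The 3 emptiest windows held 111, 127 and 134 tags. They began at 68600001, 68400001 and 68100001, with log2 changes of -0.06 ± 0.33, -0.00 ± 0.30 and -0.47 ± 0.30. With 4 to 29 tags in a library, their limma voom adjusted p ran between 0.542 and 0.999.

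**Figure D3:**
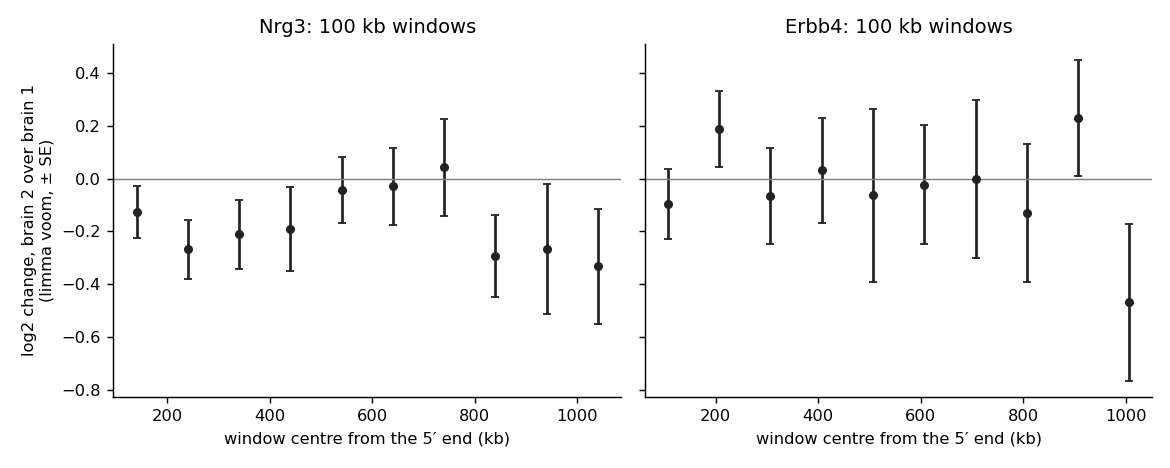
Log2 change of 100 kb windows, brain 2 over brain 1, by the distance of the window centre from the 5′ end in kb, for Nrg3 (left) and Erbb4 (right). Points are limma voom estimates with bars of 1 SE, and the grey line marks no change. In Nrg3, 9 of 10 points lie below the line and in Erbb4 7 of 10 do, and none passed the adjusted threshold. The first 90 kb of Nrg3 and the first 57 kb of Erbb4 lie in no window shown.

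Tags of all libraries that overlap on a strand were joined into clusters, whose height is the number of tags that cover the most covered base. Nrg3 held 129 clusters of height 10 or more, 11.6 per 100 kb, and these held 2791 tags or 33.7% of the tags of the locus. Erbb4 held 34, 3.14 per 100 kb, with 642 tags or 18.7% of its tags. In the whole series 22803 such clusters held 15.7% of the tags. Typical clusters of both genes were alike in shape, with a median width of 46 nt and a median height of 15 in Nrg3 and the same medians in Erbb4, beside 42 nt and 14 in the whole series. Clusters of height 20 or more made up 29.5% in Nrg3, 29.4% in Erbb4 and 26.1% in the whole series. The threshold cut through a continuous range: Nrg3 had 16 clusters of height 10 and 17 of height 9, and Erbb4 had 3 and 6.

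Most clusters held tags of both brains, as clusters did throughout the series. Of the 129 in Nrg3, 128 held tags of both brains and 1 held tags of brain 1 alone; of the 34 in Erbb4, 33 held tags of both and 1 of brain 1 alone. Over the whole series 99.1% held tags of both, and since clusters were built on pooled tags, one of 10 tags or more seldom lacks a brain, so nothing is read from these counts. All 8 libraries contributed to 27 Nrg3 clusters (20.9%) and to 9 Erbb4 clusters (26.5%), beside 23.8% in the whole series. Part of the height came from repeated rows, which made up 19.4% of the tags in Nrg3, 15.7% in Erbb4 and 11.5% elsewhere. Repeated rows ran at 12.6, 14.2, 22.0 and 28.0% of Nrg3 tags in brain 2 and 19.7, 15.8, 21.1 and 21.4% in brain 1, and at 12.1, 13.5, 14.3 and 32.1% of Erbb4 tags in brain 2 and 13.5, 14.9, 16.1 and 13.8% in brain 1. Whether these are copies made in amplification or separate molecules was not tested. With repeated rows counted once, 85 of the 129 Nrg3 clusters and 26 of the 34 Erbb4 clusters still held 10 tags or more, a looser measure than height. Clusters built from those rows reached a height of 10 in 79 places in Nrg3 and 25 in Erbb4. A single position held over 50% of the tags in 46 of the 129 Nrg3 clusters and in 13 of the 34 of Erbb4. These counts were not set beside the whole series, so nothing is read from them.

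Clusters followed the slope of the tags and left long gaps farther from the 5′ end. In Nrg3, 98 clusters (76.0%) lay 5′ of the midpoint, the first 4.80 kb and the last 1065 kb from the 5′ end. Neighbouring clusters were a median of 3.30 kb apart, and 48 of 128 gaps were shorter than 1 kb. The longest stretch of Nrg3 without a cluster ran 124.7 kb, chr14:39283269-39407957, and still held 213 tags. In Erbb4, 29 clusters (85.3%) lay 5′ of the midpoint, the first 3.02 kb and the last 871 kb from the 5′ end. The median gap was 11.2 kb, and 8 of 33 gaps were shorter than 1 kb. The longest stretch of Erbb4 between clusters ran 213.6 kb, chr1:68492672-68706280, with 351 tags in it, and the last 210.9 kb at its 3′ end held no cluster. Tags in such stretches were scattered, not absent.

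**Figure D4:**
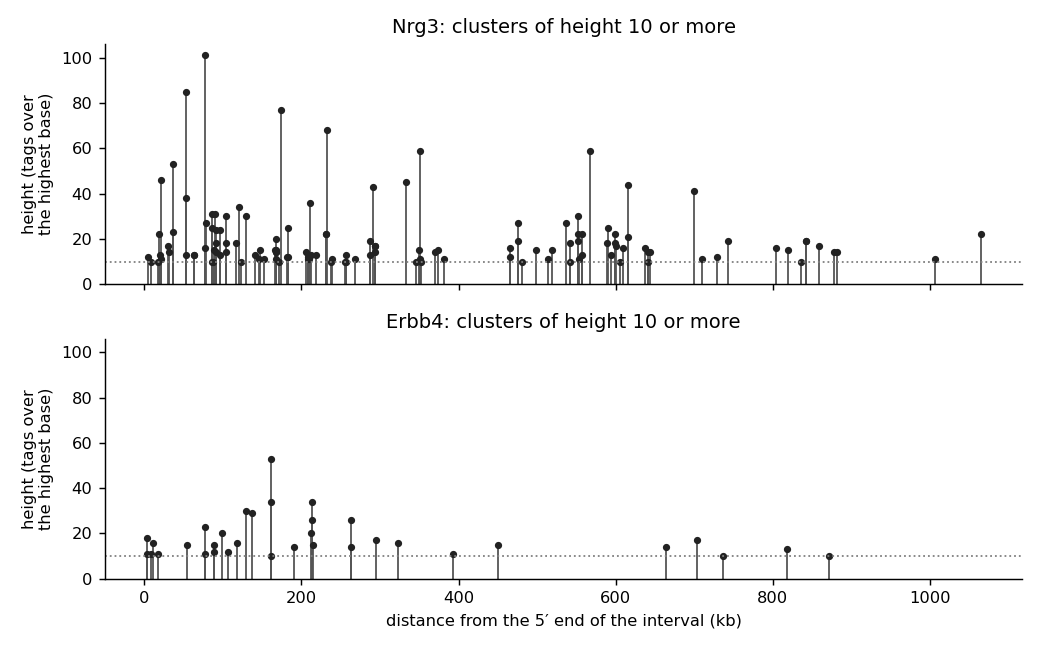
Height of each cluster of height 10 or more (tags over its highest base, all libraries pooled) by distance from the 5′ end of the interval in kb, for the 129 clusters of Nrg3 (top) and the 34 of Erbb4 (bottom). The dotted line marks a height of 10. The tallest cluster of each gene lies in its 5′ part, with a height of 101 in Nrg3 and 53 in Erbb4. Within 300 kb of the 5′ end lie 6 of the 10 tallest clusters of Nrg3 and 10 of the 10 tallest of Erbb4. Erbb4 has no cluster between 451 and 664 kb.

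The 10 tallest clusters of Nrg3 had heights of 44 to 101 and widths of 36 to 164 nt, and 6 lay within 300 kb of the 5′ end. The tallest, chr14:40212426-40212484, lay 77.5 kb from the 5′ end and had a height of 101. It held 7, 9, 8 and 12 tags in brain 2, against 17, 18, 17 and 13 in brain 1. As levels this was 32.4 ± 13.5 CPM in brain 2 and 33.8 ± 5.31 CPM in brain 1 (SD, n = 4), with library 4 of brain 2 the highest of all. The second, chr14:40236986-40237106, lay 53.0 kb from the 5′ end with a height of 85. It held 6, 4, 9 and 4 tags in brain 2, against 18, 15, 16 and 17 in brain 1, or 19.6 ± 6.17 CPM in brain 2 and 34.2 ± 1.63 CPM in brain 1. Its brain 2 libraries, at 12.2 to 26.4 CPM, all lay below its brain 1 libraries, at 32.7 to 36.2 CPM. Of the 466 clusters tested in the genome 1.50% did so. It was the 1 cluster so separated of the 20 named, but most of those were not deep enough to be among the 466. Shorter Nrg3 clusters not among the 20, at 40077482, 39937446 and 40272412, were separated in the same way on 10 to 15 tags each. The third tallest, chr14:40116098-40116261, was the widest of the 10 at 164 nt. It held 8, 6, 19 and 12 tags in brain 2, against 19, 12, 18 and 15 in brain 1. Its level was 39.1 ± 18.1 CPM in brain 2 and 33.0 ± 5.44 CPM in brain 1, with overlap.

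The 3 tallest were the Nrg3 clusters deep enough for the limma voom test of clusters, and 0 passed. No Erbb4 cluster was deep enough for it. A fit without the count filter took in all 22803 clusters of the series, and its Erbb4 values are not given here. Over the 466 clusters tested in the genome, 6 passed an adjusted p of 0.05, which is 1.29%, and 89 had an unadjusted p below 0.05. The log2 changes of the 3 tested, brain 2 over brain 1, were -0.32 ± 0.30, -0.92 ± 0.42 and -0.01 ± 0.29, with limma voom adjusted p of 0.603, 0.248 and 0.990. The second had an unadjusted p of 0.0372. Scaling by total tags in place of the trimmed mean moved the median log2 change of all clusters tested to 0.16, against 0.02, and turned the sign of the third.

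The other tall Nrg3 clusters reached farther into the gene. The fourth, chr14:40057266-40057326, held 6, 6, 8 and 7 tags in brain 2, against 12, 9, 12 and 11 in brain 1, and lay 232.7 kb from the 5′ end, inside the fullest 10 kb of the gene. That bin held 5 clusters with 140 of its 327 tags. The clusters at chr14:39939470-39939505 and chr14:39722470-39722515 each had a height of 59, and in them 59.3% and 62.7% of the tags shared 1 position. The cluster at 39939470 lay 351 kb from the 5′ end and held 3, 5, 5 and 1 tags in brain 2, against 15, 14, 6 and 10 in brain 1. The cluster at 39722470 lay at 568 kb and held 6, 4, 8 and 11 tags in brain 2, against 7, 7, 3 and 13 in brain 1. The remaining 4, at 36.6, 21.2, 334 and 616 kb, had heights of 53, 46, 45 and 44. Of the 10, 8 held tags of all 8 libraries and 2 of 7, and the mean CPM was higher in brain 2 in 6 and lower in 4. The 10 were picked by pooled height and not set beside clusters as tall elsewhere, so nothing is read from these counts.

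All of the 10 tallest clusters of Erbb4 lay within 300 kb of the 5′ end, between 76.9 and 263 kb, with heights of 20 to 53. The tallest, chr1:68995557-68995601, had a height of 53 and held 6, 4, 5 and 9 tags in brain 2, against 8, 10, 7 and 4 in brain 1. In it 60.4% of the tags shared 1 position. Its neighbour, chr1:68995379-68995481, was the widest of the 10 at 103 nt and held 2, 7, 4 and 5 tags in brain 2, against 11, 4, 6 and 3 in brain 1. Both lay in the fullest 10 kb of Erbb4, where 3 clusters held 105 of 181 tags. A second group lay near 213 kb, with chr1:68943613-68943657 (height 34), chr1:68942997-68943064 (height 26) and chr1:68944677-68944714 (height 20). The first of these held 3, 0, 5 and 4 tags in brain 2, against 8, 5, 5 and 4 in brain 1. The clusters at chr1:69027061-69027095 and chr1:69019802-69019847 had heights of 30 and 29. As in Nrg3, 8 of the 10 held tags of all 8 libraries and 2 of 7. The mean CPM was higher in brain 2 in 4 and lower in 6. None of the 10 was deep enough for the test with the count filter, and as in Nrg3 nothing is read from the counts.

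Tags in both loci were slightly longer than tags elsewhere, a property that the choice of the loci did not use. The mean length in Nrg3 minus that of all other tags was 0.259, 0.221, 0.215 and 0.206 nt in brain 2 and 0.106, 0.164, 0.161 and 0.136 nt in brain 1. The difference was positive in 8 of 8 libraries, with a mean of 0.184 nt (two-sided exact sign-flip permutation p = 0.0078, the smallest that 8 libraries can give; adjusted p = 0.0273). In Erbb4 it was 0.177, 0.171, 0.00838 and 0.196 nt in brain 2 and 0.0855, 0.0375, 0.0261 and 0.0307 nt in brain 1. It was again positive in 8 of 8 libraries, with a mean of 0.0915 nt (same exact test, p = 0.0078, adjusted p = 0.0273). Of 564 strand-specific windows of 1 Mb with 1000 tags or more, a comparison added after the data were seen, 40.6% were also above the rest in each library. Their median difference was 0.123 nt with quartiles of 0.0678 and 0.178 nt, and 77.0% of them lay below Nrg3 and 34.4% below Erbb4. Longer tags were thus common among windows rich in tags, and their presence here is not a result about these genes. Leaving out any 1 library raised the adjusted p of both to 0.0547, the smallest that 7 libraries allow here.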

How the data were processed

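The authors deposited 1 list of mapped tags for all 8 libraries, giving the position and strand of every tag and a name from which its library is read. Per the submitters' processing notes Bowtie was used, with no version given, and the builds mm 8 and mm 9 are named; positions past the end of a chromosome in the older build place the tags in mm9. For repeated reads and reads that map more than once, no treatment is given in the sources used here. Reads began with degenerate bases, per the labels' protocols.

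Tags were counted here per library by midpoint and strand. Tags overlapping by 1 nt or more on a strand were joined into clusters. CPM is tags per 1e6 tags of the library, and single values were compared by exact permutation tests over libraries. limma 3.58.1 (voom, R 4.3.3) was fitted on all windows or clusters with at least the CPM that 10 tags make at median depth in 4 libraries and 15 tags in all. Scaling used the trimmed mean of log ratios, with 30% trimmed by ratio and 5% by level on either side. The threshold was a Benjamini-Hochberg adjusted p of 0.05. The members, lists and tests were chosen with earlier results of these data known. Within each locus the text names the 10 tallest clusters and the 3 fullest and 3 emptiest of the windows wholly inside it. It also names each window or cluster that passed, and the longest stretch without a cluster. The alternatives were another scaling, no filter, the library number as a block, libraries of a letter summed, repeated rows counted once, the title letters apart, other window sizes, cluster heights and overlaps, and each library left out.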

Additional observations from a re-analysis of the deposited data

Results flagged for a closer look

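In 8 of 96 sets of 4 libraries, 1 library lay farther from the rest than Dixon's 95% limit allows, where chance gives about 1 in 20. The Nrg3 share 5′ of the midpoint was 74.02% in library 1 of brain 1, against 72.2 to 72.4% in the other libraries of brain 1. In library 4 of brain 2, 32.11% of Erbb4 tags were repeated rows, against 12.1 to 14.3% in the other libraries of brain 2. In library 3 of brain 2 the Erbb4 tags were longer than the rest by 0.008384 nt only, against 0.171 to 0.196 nt in the others.

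The other 5 were single windows or clusters. The Nrg3 window chr14:39300001-39400000 held 85.06 CPM in library 2 of brain 2, against 39.4 to 44.0 in the others of brain 2. The tallest Nrg3 cluster, chr14:40212426-40212484, held 52.53 CPM in library 4 of brain 2, against 23.5 to 27.3 in the others, and the Erbb4 cluster chr1:69080024-69080092 held 8.756 CPM in that library, against 2.93 to 3.74. In library 1 of brain 1 the Nrg3 cluster chr14:39956232-39956267 held 25.67 CPM and the Erbb4 cluster chr1:69027061-69027095 held 18.34 CPM, against 6.53 to 8.52 in the others of brain 1 for each. These rest on few tags in a library.

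The excess in length of Nrg3 tags over the rest was 0.225 ± 0.0235 nt in brain 2 and 0.142 ± 0.0271 nt in brain 1 (SD, n = 4 each), a difference of 0.08366 nt with no overlap between libraries (two-sided exact permutation p = 0.0286, the smallest possible, unadjusted and outside the 7 tests). How many other windows of the genome separate the brains in this way was not counted, so the difference is not read as a trait of Nrg3. Part of it lies in the other tags, whose mean length was 28.668 ± 0.0424 nt in brain 2 and 28.709 ± 0.0298 nt in brain 1. The mean length of Nrg3 tags themselves was 28.893 ± 0.0237 nt in brain 2 and 28.850 ± 0.0337 nt in brain 1, with overlap between libraries. For Erbb4 the excess was 0.138 ± 0.0872 nt in brain 2 and 0.0449 ± 0.0275 nt in brain 1, a difference of 0.0932 nt (exact permutation p = 0.143).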

How the results depend on the processing

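The Nrg3 level stayed lower in brain 2 under 14 alternatives, with log2 changes of -0.44 to -0.05 (adjusted p 0.133 to 1), and its ratio to Erbb4 under 13 (-0.26 to -0.03). Erbb4 stayed lower except among libraries of the letter b, at 0.2101, and reached -0.41 among those of the letter a. No window wholly inside either locus passed under any alternative run. Nrg3 clusters were tested under 12 of the 13 alternatives for clusters, and 0 passed. Without a library of brain 1 only 1 or 2 of them were deep enough, so those runs could show little. The Nrg3 share 5′ of the midpoint turned to 0.2048 percentage points with repeated rows counted once and 0.1405 among libraries of the letter a. Without single libraries it ran between -0.65 and 0.561, and the Erbb4 share between -0.491 and 1.2606. Deviations from the brain means correlated at -0.0604 to -0.0221 between libraries of 1 number. Libraries 1, 2, 3 and 4 of brain 2 correlated best with libraries 4, 3, 2 and 1 of brain 1. These values cannot settle whether libraries of the brains were handled in pairs. With the number as a block, windows passing numbered 62 and clusters 5. The length excess under the block, 0.1836 nt in Nrg3 and 0.0915 nt in Erbb4, is the mean of the same differences and cannot move; with libraries of a letter summed it was 0.1826 and 0.0897 nt. It lost its adjusted significance in both (adjusted p = 0.438), where the smallest exact p is 0.125. Without single libraries it was 0.1728 to 0.1947 nt in Nrg3 and 0.0766 to 0.1034 nt in Erbb4, with the smallest possible p there giving an adjusted p of 0.0547. Passing windows in the genome numbered 24 of 36987 without the count filter (20 tags or more), 0 of 22293 with letters summed (1679 at an unadjusted p below 0.05), and 16 to 65 without single libraries. Passing clusters numbered 15 with total tags, 0 of 1982 with letters summed (156 at an unadjusted p below 0.05), and 1 to 9 without single libraries. Total tags gave 15 clusters higher and 0 lower in brain 2, against 5 and 1, and 12 windows higher and 37 lower, against 31 and 32. Nrg3 held 359 clusters at height 5, 38 at height 20 and 79 with repeated rows once (97 to 123 without single libraries); Erbb4 held 137 at height 5 and 10 at height 20 (25 to 32). The Nrg3 window at 39500001 turned to -0.0393 with total tags, -0.1164 without the filter and -0.0933 with letters summed, and ran from -0.0635 to 0.16 without single libraries. Erbb4 windows at 68800001, 68600001 and 68400001 ran from -0.1651 to 0.0647, -0.3669 to 0.4265 and -0.2061 to 0.2189; the block gave 0.1931 for the window at 68600001, and repeats once gave 0.0149 for that at 68400001. The Nrg3 cluster at 40116098 turned to 0.0851 with total tags and 0.1001 with the block, and ran from -0.2468 to 0.2825. The causes were not tested.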
